A study of Mus musculus with 15 samples.

Results

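Semaphorins, plexins and neuropilins, the ligands, receptors and co-receptors of a system of cell surface signalling best known from axon guidance, were followed across 5 dissected regions of the mouse brain on embryonic day E12.5. The genes were chosen by symbol alone, as every semaphorin of classes 3 to 7, every plexin and both neuropilins in the deposited table. These were 31 of its 24264 genes, namely 20 semaphorins, 9 plexins and 2 neuropilins. A filter on low values was passed by 30 of them, and Plxnb3 did not pass.

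The 5 regions were the ventral and the dorsal midbrain, the alar plate, the forebrain and the hindbrain, with 3 libraries each. All tissue came from C57bl/6 mice that express GFP from the promoter of Th, the gene of the enzyme that begins dopamine synthesis, so every group carried that transgene. Regions were dissected under a microscope, and each library was made from 200 ng of RNA. The labels name no sorting of the GFP cells, give no level along the brain for the alar plate, and do not say whether the 3 libraries of a region came from separate embryos. The p-values therefore measure the spread between these libraries, which may be technical.

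Semaphorins are secreted or membrane-bound proteins that steer growing axons and migrating neurons, most often by repulsion. Class 3 semaphorins are secreted and mostly bind a neuropilin, which signals through a plexin of the A type, while the membrane-bound classes mostly bind plexins directly. Plexins change the cytoskeleton through small GTPases, and in the embryonic midbrain and hindbrain this system is known for guiding motor, commissural and dopaminergic axons.

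Values are RPKM, read numbers scaled for gene length and library size, so levels can be compared between genes per length. The deposited values gave back whole reads for 99.9% of the 16612 genes that were above 0 in most libraries. Recovered reads summed to between 8419316 and 12724274 per library. Region markers went with the labels for ventral midbrain, where all 6 markers were higher than in the other regions, and for dorsal midbrain, where all 6 markers of dorsal midbrain and alar plate were. In the forebrain, Tcf7l2, a marker of its caudal part, stood at 403, 259 and 132 RPKM in libraries 1, 2 and 3. In the hindbrain, Hoxa2 stood at 0.107, 11.1 and 6.24 RPKM in libraries 1, 2 and 3. Dorsal midbrain 3, alar plate 3 and forebrain 1 stood apart from the other libraries of their region, with Pearson r of 0.967 and 0.971, 0.927 and 0.925, and 0.964 and 0.960 across genes, against 0.984 to 0.995 for all other pairs of libraries of a region. They are called the 3 discordant libraries below, and results are given with and without them where they change.

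Among members called different between regions, Nrp2, Sema3d, Sema3a and Sema3e had the largest ratios of the highest to the lowest region mean. Their region means differed by 9.70-fold, 9.20-fold, 9.08-fold and 4.69-fold. Plxnb3, at 6.28-fold, was not tested, and Sema5a, at 4.93-fold, was not called. The promoters of the first 4 genes are shown because of their ratios and because the sequences differ in kind. Each line holds the 250 bases before a start that RefSeq gives for the gene on GRCm38.p6, read 5′ to 3′, with every CG dinucleotide in capitals. For Sema3d, unlike the other 3 genes, the 50 bases after that start were not found unbroken in any GENCODE transcript of the gene itself. All 4 lie on the + strand, at chr1:62703067-62703316, chr5:12382916-12383165, chr5:13396534-13396783 and chr5:14025026-14025275 in the order of the lines.
Nrp2: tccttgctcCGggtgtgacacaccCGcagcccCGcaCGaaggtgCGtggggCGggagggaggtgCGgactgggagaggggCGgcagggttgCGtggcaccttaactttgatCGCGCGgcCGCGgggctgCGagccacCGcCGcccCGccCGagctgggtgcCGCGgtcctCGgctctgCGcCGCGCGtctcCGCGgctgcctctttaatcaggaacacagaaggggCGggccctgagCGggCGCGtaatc
Sema3d: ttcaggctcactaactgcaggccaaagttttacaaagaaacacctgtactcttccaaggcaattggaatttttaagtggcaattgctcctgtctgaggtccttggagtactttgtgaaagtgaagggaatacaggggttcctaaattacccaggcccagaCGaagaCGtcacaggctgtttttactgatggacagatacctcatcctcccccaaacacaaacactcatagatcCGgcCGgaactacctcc
Sema3a: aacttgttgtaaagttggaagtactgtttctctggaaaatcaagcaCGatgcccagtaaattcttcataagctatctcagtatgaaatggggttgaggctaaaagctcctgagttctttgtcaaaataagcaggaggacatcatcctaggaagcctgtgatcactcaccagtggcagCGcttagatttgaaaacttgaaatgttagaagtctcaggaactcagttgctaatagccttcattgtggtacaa
Sema3e: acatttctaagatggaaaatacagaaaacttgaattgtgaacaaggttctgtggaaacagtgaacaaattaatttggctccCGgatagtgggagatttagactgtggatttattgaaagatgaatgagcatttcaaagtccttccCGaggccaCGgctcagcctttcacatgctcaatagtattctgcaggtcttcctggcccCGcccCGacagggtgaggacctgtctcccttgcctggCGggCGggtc
The window before Nrp2 held 32 CG dinucleotides and was 72.4% G or C. Those before Sema3d, Sema3a and Sema3e held 4, 2 and 7 and were 46.8%, 40.8% and 48.0% G or C. Across 32851 promoter windows of that length the median was 6 CG dinucleotides and 52.4% G or C, 4.58% of windows held 32 or more and 29.0% held 2 or fewer. RefSeq windows were matched for 26 of the 31 members, 37 windows in all, with a median of 13 CG dinucleotides and 64.0% G or C. The windows of the 3 semaphorins that are low in most regions thus lay near or below the median of all windows, and that of Nrp2 lay well above. No measurement of binding or methylation was available to set beside these letters.

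Regional differences were tested with limma on log2(RPKM + 1), and a gene was called when its adjusted p was under 0.05. Over the 5 regions 16 of the 30 tested members were called, against 33.7% of all 13745 genes tested. They comprised Nrp2, 2 of 8 tested plexins (Plxna2 and Plxna4) and 13 of 20 semaphorins. All 7 class 3 semaphorins were among them, with 4 of 6 in class 4, 1 of 2 in class 5, 1 of 4 in class 6 and not Sema7a, the member of class 7. Of the class 3 calls, Sema3d and Sema3e entered the test only through ventral midbrain, where they are high. Those of Sema3c, Sema3g and Sema3b were lost in 13, 10 and 3 of the 15 fits that left out 1 library. Without the 3 discordant libraries, 30 of 30 members were called, against 70.7% of all genes. In bulk tissue, fewer cells of a type and less RNA per cell cannot be told apart, and this holds for every difference given here.

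**Figure D1:**
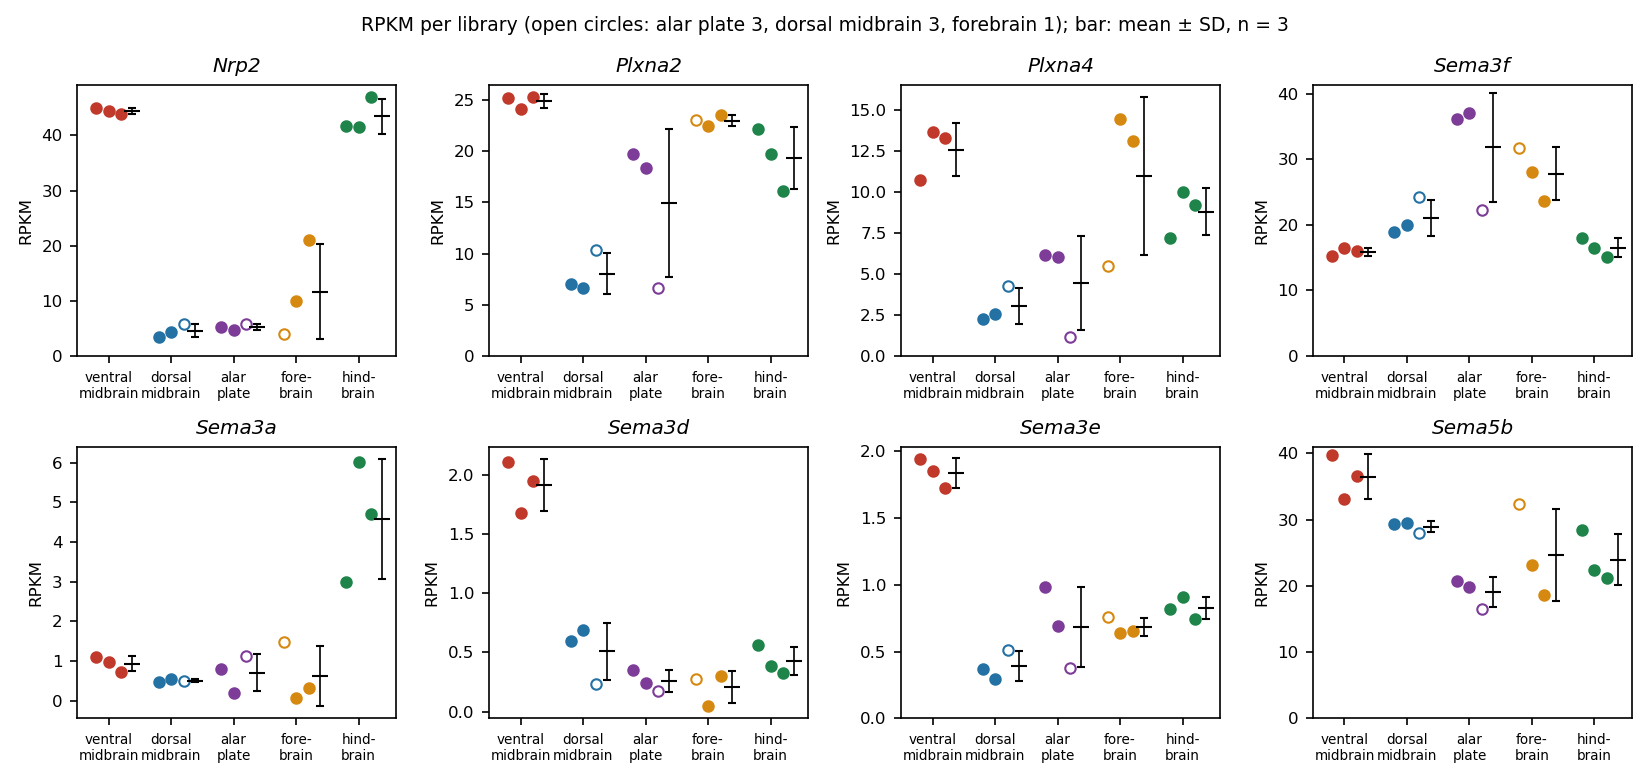
RPKM of selected semaphorin, plexin and neuropilin genes in the 15 libraries, 1 panel per gene; points are libraries, and bars give the mean and SD of the 3 libraries of each region, and open circles are the 3 discordant libraries. Nrp2 lies at 41.6 to 47.0 RPKM in all ventral midbrain and hindbrain libraries and at 21.0 RPKM or less in the other 9.

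Nrp2, the co-receptor for class 3 ligands such as Sema3f, split the regions into a high and a low group. It stood at 45.0, 44.4 and 44.0 RPKM in ventral midbrain 1, 2 and 3 and at 41.7, 41.6 and 47.0 RPKM in hindbrain 1, 2 and 3. It was at 3.51, 4.40 and 5.83 RPKM in dorsal midbrain, at 5.32, 4.67 and 5.85 RPKM in alar plate and at 4.08, 10.004 and 21.0 RPKM in forebrain. Ventral midbrain and hindbrain overlapped each other and no library of the other regions reached them, while the 3 forebrain libraries were spread widely. Against the mean of the other 4 regions, the log2 difference was 2.01 ± 0.29 (SE; limma adjusted p = 0.000446) for ventral midbrain and 1.96 ± 0.29 (adjusted p = 0.00105) for hindbrain. It was -1.80 ± 0.29 (adjusted p = 0.00138) for dorsal midbrain and -1.57 ± 0.29 (adjusted p = 0.00828) for alar plate. All 4 calls held when any single library was left out. In the order of the levels, the step from hindbrain to forebrain was 2.05 ± 0.36 (adjusted p = 0.00603), and the other neighbours were not told apart with all libraries. Without the 3 discordant libraries the step from forebrain to alar plate was also called (adjusted p = 0.00278). The forebrain libraries differed in ventral markers in the same order as in Nrp2. The summed level of 6 ventral midbrain markers was 2.65, 32.6 and 73.0 RPKM in forebrain 1, 2 and 3, and their part in the spread of Nrp2 was not tested.

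Nrp1, the co-receptor that carries the signal of Sema3a, varied much less. Its levels were 8.82, 9.82 and 9.40 RPKM in ventral midbrain, 12.4, 13.2 and 11.6 RPKM in hindbrain and 6.19, 11.2 and 13.1 RPKM in forebrain. In dorsal midbrain it stood at 5.43, 6.83 and 6.59 RPKM, and in alar plate at 10.1, 8.37 and 5.90 RPKM. The dorsal midbrain libraries lay below all of the ventral midbrain and hindbrain libraries. Nrp1 missed the threshold over the 5 regions (adjusted p = 0.0505) and was lower in dorsal midbrain than in the other regions by -0.56 ± 0.17 (adjusted p = 0.0253). That call was lost without dorsal midbrain 1 or 2, at -0.48 and -0.62. The level of the neuropilins together, the sum of the RPKM of both genes, was 53.8 ± 0.41 (SD, n = 3) in ventral midbrain and 55.8 ± 2.4 in hindbrain, against 21.8 ± 12, 13.4 ± 1.9 and 10.9 ± 1.8 in forebrain, alar plate and dorsal midbrain.

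Among the A-type plexins, which signal for class 3 and class 6 ligands, Plxna2 and Plxna4 were low in dorsal midbrain. Plxna2, a receptor of class 6 semaphorins, was at 7.06, 6.68 and 10.4 RPKM in dorsal midbrain, against 25.2, 24.1 and 25.3 RPKM in ventral midbrain. It stood at 23.0, 22.4 and 23.5 RPKM in forebrain, 22.1, 19.7 and 16.1 RPKM in hindbrain and 19.7, 18.3 and 6.60 RPKM in alar plate. Only alar plate 3 among the other 12 libraries reached down to the dorsal midbrain values. The log2 difference of dorsal midbrain from the other regions was -1.21 ± 0.23 (adjusted p = 0.0031) and held when any single library was left out. Plxna4, which pairs with Nrp1 in the response to Sema3a, was at 2.27, 2.54 and 4.29 RPKM in dorsal midbrain and at 10.7, 13.7 and 13.3 RPKM in ventral midbrain. It stood at 5.50, 14.4 and 13.1 RPKM in forebrain, 7.201, 9.98 and 9.20 RPKM in hindbrain and 6.18, 6.03 and 1.18 RPKM in alar plate. Forebrain 1 and alar plate 3 lay far below the other libraries of their regions. The dorsal midbrain difference of Plxna4 was -1.22 ± 0.33 (adjusted p = 0.0154), and -1.67 without the 3 discordant libraries. Without dorsal midbrain 1 or 2 it was -1.08 and -1.14 and missed the threshold, as did the test over the 5 regions (adjusted p = 0.0576 and 0.0559).

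Plxna1 and Plxna3, the other A-type plexins, stood at a high level in every region. Plxna1 ranged from 40.7 to 73.2 RPKM in 14 libraries and stood at 27.3 RPKM in alar plate 3, and it was not called (adjusted p = 0.257). Plxna3 ranged from 18.9 RPKM, again in alar plate 3, to 46.0 RPKM in forebrain 2 (adjusted p = 0.158). Without the 3 discordant libraries both were called, and Plxna1 was then lower in ventral midbrain than in the other regions by -0.54 (adjusted p = 1.7e-06). The A-type plexins together stood at 118 ± 2.9 RPKM (SD, n = 3) in ventral midbrain, 140 ± 3.5 in hindbrain, 139 ± 7.5 in forebrain, 108 ± 47 in alar plate and 96.6 ± 17 in dorsal midbrain, with alar plate 3 at 53.9 RPKM.

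**Figure D2:**
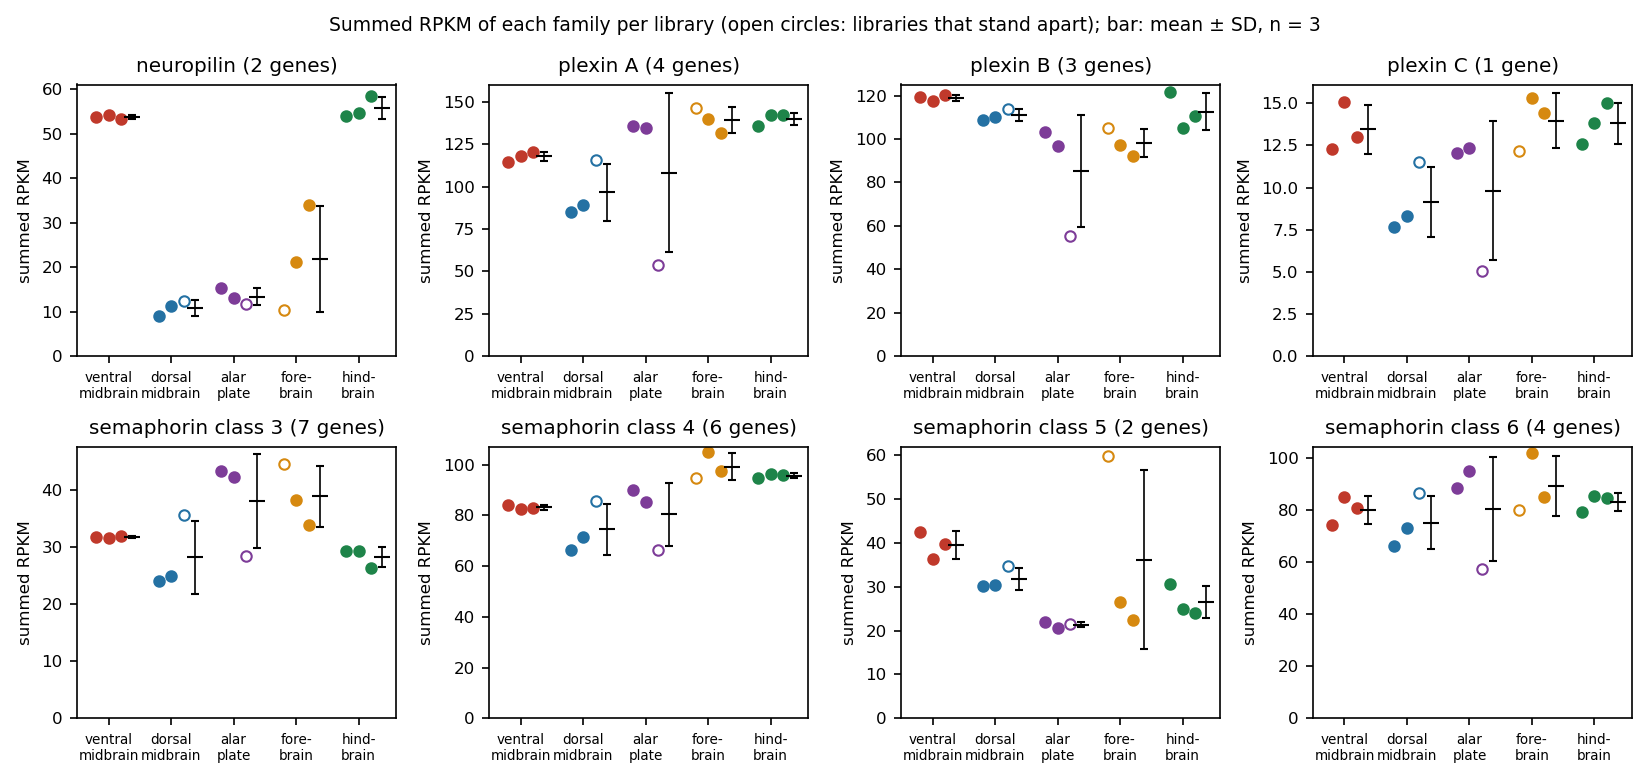
Summed RPKM of the families of semaphorin, plexin and neuropilin genes with the discordant libraries as open circles, the other libraries as filled circles and bars for the mean and SD of 3; plexin D and semaphorin class 7 are left out. The neuropilin sum lies at 53.4 to 58.6 RPKM in ventral midbrain and hindbrain and at 34.0 RPKM or less elsewhere, and the plexin A and plexin B sums of alar plate 3 are 53.9 and 55.5 RPKM.

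The B-type plexins are receptors of class 4 semaphorins. Plxnb1 and Plxnb2 were among the most abundant members, with region means of 44.6 to 62.5 RPKM and 40.5 to 57.4 RPKM, and neither was called over the regions (adjusted p = 0.149 and 0.0625). Plxnb2 was higher in ventral midbrain than in alar plate by 0.51 ± 0.15 (adjusted p = 0.0428), and by 0.27 without the 3 discordant libraries. Plxnb3, known from oligodendrocytes, had values of 0.012 to 0.126 RPKM, or 1 to 9 recovered reads per library, and did not pass the filter. With no filter it was called over the regions (adjusted p = 0.0124), with a hindbrain difference of 0.08 on the log2(RPKM + 1) scale. For that gene 3 reads correspond to 0.036 to 0.0543 RPKM, so its levels in most regions were near the limit of what this depth can show. Plxnc1, the receptor of Sema7a, had region means of 9.14 to 14.0 RPKM and was not called (adjusted p = 0.131).

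Plxnd1, the receptor of Sema3e and best known from endothelial cells, was the only member called higher in dorsal midbrain with all 15 libraries. It stood at 9.58, 10.7 and 5.44 RPKM there, at 6.80, 4.28 and 2.82 RPKM in alar plate, and between 3.99 and 5.27 RPKM in the other 9 libraries. Dorsal midbrain 1 and 2 lay above all other libraries, and dorsal midbrain 3 did not. The difference was 0.73 ± 0.19 (adjusted p = 0.0126), or 0.96 without the 3 discordant libraries, and it missed the threshold without dorsal midbrain 1 or 2 (0.64 and 0.56). Markers of other cell types moved with these libraries. The summed level of 8 endothelial markers was 62.9, 63.9 and 44.4 RPKM in the dorsal midbrain and 60.3, 36.4 and 53.3 RPKM in alar plate, against 37.0 to 51.9 RPKM in the other libraries, with 4 of 8 called higher in dorsal midbrain. The 9 markers of meninges and mesenchyme summed to 122, 130 and 68.0 RPKM in the dorsal midbrain and to 165, 9.08 and 48.7 RPKM in alar plate, against 4.20 to 16.2 RPKM elsewhere, and all 8 that were tested were called higher in dorsal midbrain. Their part in the level of Plxnd1 was not tested.

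Among the class 3 ligands, Sema3d and Sema3e marked the ventral midbrain at low levels. Sema3d stood at 2.11, 1.67 and 1.95 RPKM in ventral midbrain and between 0.0482 and 0.690 RPKM in the other 12 libraries. Sema3e, the ligand of Plxnd1, stood at 1.94, 1.85 and 1.72 RPKM in ventral midbrain and between 0.293 and 0.981 RPKM elsewhere. For both genes no library of another region reached the ventral midbrain values. Both passed the filter on low values only through the 3 ventral midbrain libraries, so the filtered test is of no use for that difference. With no filter, over all genes above 0 in any library, the log2 difference of ventral midbrain from the other regions was 1.12 ± 0.10 (adjusted p = 1.19e-05) for Sema3d and 0.80 ± 0.09 (adjusted p = 8.9e-05) for Sema3e. Adding 1 before taking the logarithm makes such differences smaller for genes at low levels. Whether they depend on 1 ventral midbrain library was not tested, because neither gene passes the filter without it. In the same fit with no filter, Sema3e was lower in dorsal midbrain than in the other regions by -0.49 ± 0.09 (adjusted p = 0.00341), where its receptor gene Plxnd1 was highest. Sema3d was lower in forebrain by -0.47 ± 0.10 (adjusted p = 0.0314) and in alar plate by -0.39 ± 0.10 (adjusted p = 0.0497), again with no filter. Its means there were 0.208 and 0.258 RPKM. In each of these comparisons the high ventral midbrain values are part of the mean that the region was set against. The filtered test is of no use for the forebrain difference either, since Sema3d entered it only through ventral midbrain. With the filter the forebrain difference was -0.47 ± 0.11. Its filtered call was lost in 8 of the 12 fits that left out 1 library and kept the gene, among them that without forebrain 2 (-0.37). These genes, with Sema3a, were named after their values were seen, since their region means lie below 5 RPKM.

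Sema3a, the repellent first found through the collapse of growth cones, was highest in hindbrain. It stood at 2.999, 6.02 and 4.72 RPKM in hindbrain 1, 2 and 3, or 233, 521 and 430 recovered reads. It stood at 1.10, 0.970 and 0.729 RPKM in ventral midbrain, 0.468, 0.541 and 0.504 RPKM in dorsal midbrain, 0.795, 0.196 and 1.14 RPKM in alar plate and 1.49, 0.0720 and 0.312 RPKM in forebrain. All 3 hindbrain libraries lay above the other 12, and the other 4 regions were not told apart from their neighbours in level. The hindbrain difference was 1.72 ± 0.23 (adjusted p = 0.000558), and it held when any single library was left out. The summed level of 6 hindbrain markers was 61.1, 134 and 115 RPKM in hindbrain 1, 2 and 3, the same order as that of Sema3a. Nrp1 and Plxna4, which mediate its signal, stood in the hindbrain at 12.4 ± 0.78 and 8.79 ± 1.4 RPKM (SD, n = 3).

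Sema3f, the repellent that acts through Nrp2, was lower in ventral midbrain and higher in alar plate than in the other regions. It stood at 36.1, 37.1 and 22.2 RPKM in alar plate, 31.7, 28.0 and 23.6 RPKM in forebrain and 18.9, 19.98 and 24.2 RPKM in dorsal midbrain. It stood at 15.3, 16.4 and 16.01 RPKM in ventral midbrain and at 18.0, 16.5 and 15.04 RPKM in hindbrain. All 6 libraries of these last regions lay below the other 9. The difference was 0.63 ± 0.14 (adjusted p = 0.0219) for alar plate and 0.91 without the 3 discordant libraries, and -0.53 ± 0.14 (adjusted p = 0.0249) for ventral midbrain. That for hindbrain was -0.47 ± 0.14 and missed the threshold (adjusted p = 0.0627). The alar plate call was lost without alar plate 2 (0.50), and the ventral midbrain call without any of its libraries (-0.50, -0.55 and -0.53). Sema3f was the most abundant class 3 ligand in every region.

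Sema3c, which can bind both neuropilins, stood at 7.33, 6.13 and 6.73 RPKM in ventral midbrain and at 7.83, 6.71 and 5.04 RPKM in forebrain. It stood at 3.57, 2.75 and 2.47 RPKM in hindbrain, at 2.08, 1.86 and 2.07 RPKM in alar plate and at 1.03, 0.968 and 7.87 RPKM in dorsal midbrain. Dorsal midbrain 3, one of the discordant libraries, was the highest of all 15 and its 2 partners were the lowest. Sema3c was called over the 5 regions (adjusted p = 0.0431). Its call was lost in 13 of the 15 fits that left out 1 library, with adjusted p of 0.0571 to 0.0904, and held without dorsal midbrain 3 or alar plate 3. Without the 3 discordant libraries its ventral midbrain difference was 1.12 (adjusted p = 1.4e-05) and its dorsal midbrain difference -1.32 (adjusted p = 4.6e-06). The remaining class 3 members were weak. Sema3b had region means of 0.538 to 1.70 RPKM, lowest in dorsal midbrain (-0.50 ± 0.17, adjusted p = 0.0402), and Sema3g had 1.47 to 2.75 RPKM, highest in ventral midbrain (0.39 ± 0.11, adjusted p = 0.0385). Their calls were lost in 6 and 7 of the 15 fits that left out 1 library, with differences of -0.41 to -0.50 and 0.35 to 0.43.

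**Figure D3:**
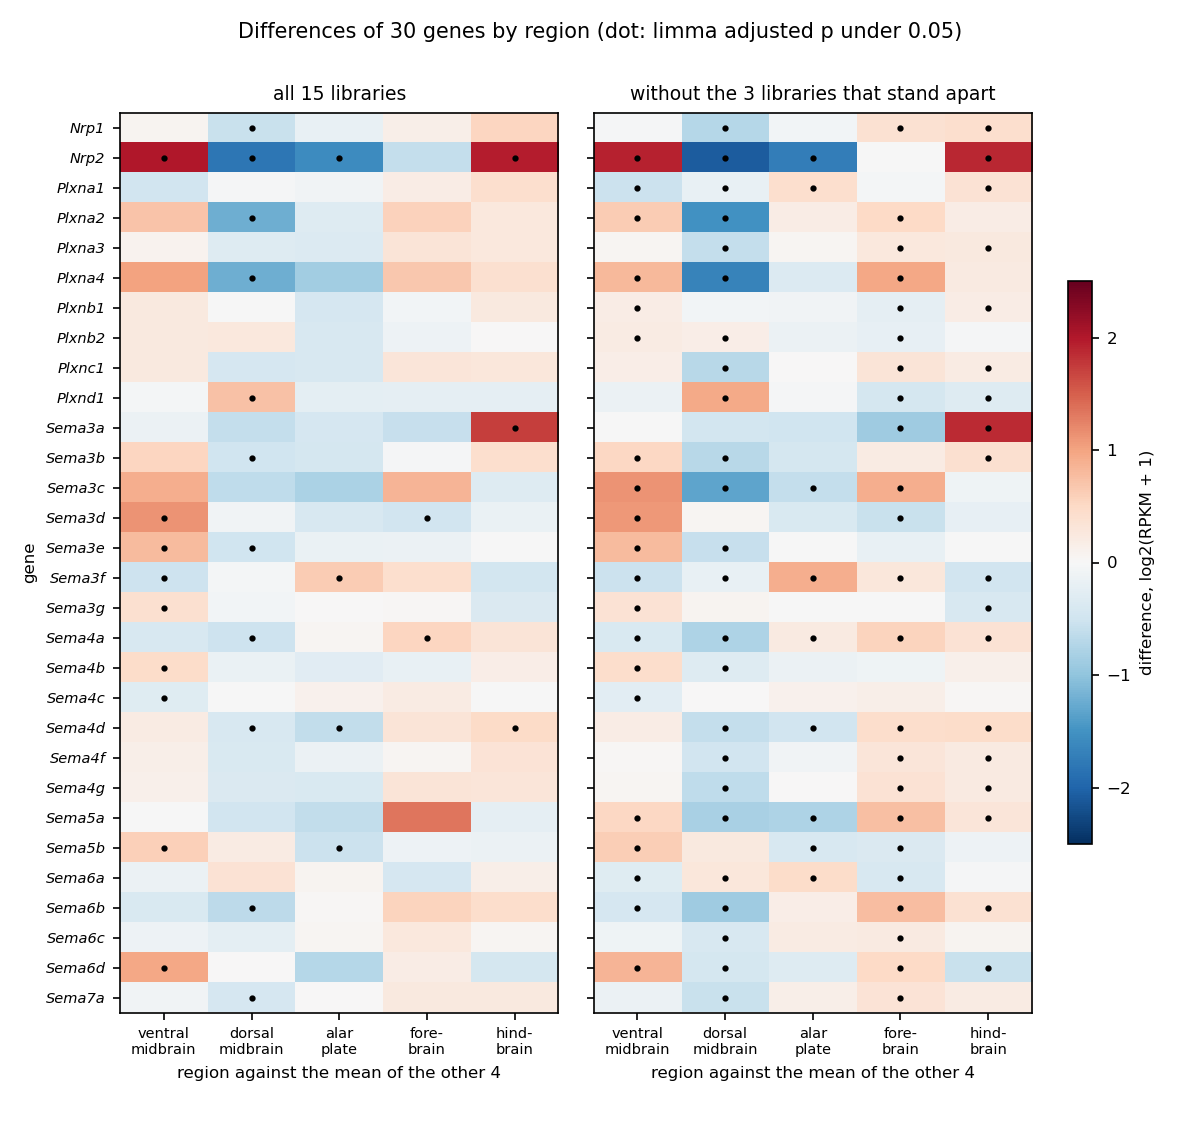
Log2 difference of each region from the mean of the other 4 regions, on the log2(RPKM + 1) scale, for the 30 tested semaphorin, plexin and neuropilin genes with all 15 libraries (left) and without the 3 discordant ones (right); dots mark calls at an adjusted p under 0.05. Nrp2 is called in 4 regions, from 2.01 in ventral midbrain to -1.80 in dorsal midbrain. The dorsal midbrain holds 10 of the 16 lower calls with all libraries. Genes at large were also called lower most often there (13.8% of all genes, against 2.27% to 3.41% in the other regions).

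Class 4 semaphorins are membrane-bound ligands of the B-type plexins and moved by smaller steps. Sema4a stood at 16.5, 17.0 and 15.8 RPKM in forebrain and 14.3, 14.8 and 14.6 RPKM in hindbrain, against 9.44, 9.28 and 9.32 RPKM in ventral midbrain, 7.04, 7.56 and 12.6 RPKM in the dorsal midbrain and 13.4, 13.6 and 10.5 RPKM in alar plate. The 3 forebrain libraries lay above the other 12. It was lower in dorsal midbrain than in the other regions by -0.51 ± 0.13 (adjusted p = 0.0109), or by -0.78 without the 3 discordant libraries. It was higher in forebrain by 0.53 ± 0.13 (adjusted p = 0.0461), a call lost in 12 of the 15 fits that left out 1 library (0.50 to 0.56). The dorsal midbrain call was lost without dorsal midbrain 1 or 2 (-0.37 and -0.41).

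Sema4b stood at 10.6, 11.6 and 10.4 RPKM in ventral midbrain and between 5.63 and 9.26 RPKM in the other 12 libraries. All ventral midbrain libraries lay above the rest, and the difference was 0.46 ± 0.10 (adjusted p = 0.0101), lost without ventral midbrain 2 (0.42). Sema4c, a ligand of Plxnb2, stood at 27.1, 23.5 and 25.7 RPKM in ventral midbrain and between 28.4 and 36.8 RPKM elsewhere. It was lower there than in every other library, by -0.30 ± 0.06 (adjusted p = 0.00977), and the call was lost without ventral midbrain 2 or 3 (-0.24 and -0.30). Sema4d, the ligand of Plxnb1, had region means of 4.77 RPKM in hindbrain, 4.31 in forebrain, 3.97 in ventral midbrain, 2.59 in dorsal midbrain and 2.17 in alar plate. Its difference was -0.61 ± 0.13 (adjusted p = 0.018) in alar plate, lost without alar plate 3 (-0.49), and -0.40 ± 0.13 (adjusted p = 0.0337) in dorsal midbrain, lost without any of 7 libraries (-0.29 to -0.39). Its hindbrain difference of 0.48 ± 0.13 (adjusted p = 0.0467) was lost without any of 11. Sema4f and Sema4g, with region means of 3.27 to 5.41 and 22.1 to 32.7 RPKM, were not called over the regions (adjusted p = 0.198 and 0.139).

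Of the class 5 members 1 was called over the regions. Sema5b, a membrane-bound ligand with thrombospondin repeats, stood at 39.8, 33.1 and 36.6 RPKM in ventral midbrain, 29.3, 29.5 and 27.9 RPKM in the dorsal midbrain and 20.8, 19.8 and 16.5 RPKM in alar plate. It stood at 32.3, 23.2 and 18.7 RPKM in forebrain and at 28.4, 22.4 and 21.2 RPKM in hindbrain. The ventral midbrain libraries lay above the other 12, by 0.60 ± 0.13 (adjusted p = 0.0104) on the log2 scale, a call lost without ventral midbrain 1 or 3 (0.54 and 0.60). The alar plate difference of -0.53 ± 0.13 (adjusted p = 0.0387) was lost in 10 of the 15 fits that left out 1 library (-0.44 to -0.56).

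Sema5a, its close relative, was highest in 3 single libraries. It stood at 27.4 RPKM in forebrain 1, 6.81 RPKM in dorsal midbrain 3 and 5.09 RPKM in alar plate 3, the 3 discordant libraries. The partners of these libraries stood at 3.41 and 3.60, at 0.832 and 0.972 and at 1.04 and 0.840 RPKM, and ventral midbrain and hindbrain lay between 2.28 and 3.10 RPKM. The 3 libraries were thus the highest of all 15, and Sema5a was not called over the regions (adjusted p = 0.32). Within each of these regions, the region markers Gbx2, Tcf7l2, Dlx2 and Zic1 were also highest in the discordant library. Gbx2, listed as a hindbrain marker, stood at 111, 14.1 and 73.0 RPKM in forebrain 1, dorsal midbrain 3 and alar plate 3. In the same order the forebrain markers Tcf7l2 and Dlx2 stood at 403, 378 and 215 RPKM and at 11.3, 1.01 and 13.5 RPKM. Zic1, a marker of dorsal midbrain and alar plate, stood at 92.3, 146 and 99.5 RPKM. Tcf7l2 stood at 259 and 132 in forebrain 2 and 3, 22.9 and 18.9 in dorsal midbrain 1 and 2 and 57.9 and 80.4 in alar plate 1 and 2. Forebrain 2 held Tcf7l2 at 259 RPKM and Sema5a at 3.41 RPKM, and alar plate 3 held them at 215 and 5.09 RPKM. The part of these markers in the level of Sema5a was not tested.

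Class 6 semaphorins are membrane-bound ligands of the A-type plexins. Sema6d, a ligand of Plxna1, stood at 15.1, 16.9 and 16.3 RPKM in ventral midbrain, 6.95, 7.83 and 13.4 RPKM in the dorsal midbrain and 8.003, 7.82 and 2.83 RPKM in alar plate. It stood at 5.87, 14.9 and 11.5 RPKM in forebrain and at 5.76, 7.75 and 7.14 RPKM in hindbrain. The ventral midbrain libraries lay above all others, forebrain 2 only just below, and the difference was 0.96 ± 0.28 (adjusted p = 0.0403). It was lost in 8 of the 15 fits that left out 1 library (0.92 to 1.01), and the test over the 5 regions missed the threshold (adjusted p = 0.0527). Sema6b, a ligand of Plxna4, was at 5.30, 7.16 and 8.90 RPKM in dorsal midbrain and 6.61, 9.27 and 9.16 RPKM in ventral midbrain. It stood at 10.96, 17.4 and 16.4 RPKM in forebrain, 11.9, 15.4 and 13.5 RPKM in hindbrain and 10.6, 13.2 and 8.51 RPKM in alar plate. All forebrain and hindbrain libraries lay above both midbrain regions. Sema6b was lower in dorsal midbrain by -0.65 ± 0.17 (adjusted p = 0.0125), lost without dorsal midbrain 1 or 2 (-0.48 and -0.66).

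Sema6c and Sema6a, with region means of 38.1 to 50.3 and 13.3 to 20.7 RPKM, were not called over the regions (adjusted p = 0.149 and 0.368). Sema6c was the most abundant semaphorin in every region. Sema7a, a membrane-anchored ligand that also binds integrins, had region means of 7.01 to 10.7 RPKM and was lower in dorsal midbrain by -0.42 ± 0.12 (adjusted p = 0.0197), lost without dorsal midbrain 1 or 2 (-0.40 and -0.37).

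Seen by region, each set against the other 4, the members were called more often on the high side in ventral midbrain and on the low side in dorsal midbrain. In ventral midbrain 9 of 30 were called (10.6% of all genes), 7 higher and 2 lower, against 7.43% and 3.16% of all genes. The 7 include Sema3d and Sema3e, which passed the filter only through that region. The median difference of the members there was 0.18, and that of all genes was -0.02. In dorsal midbrain 11 were called (32% of all genes), 1 higher and 10 lower, against 18.2% and 13.8%, with medians of -0.38 and 0.05. In alar plate 4 were called (4.66%), 1 higher and 3 lower (1.24% and 3.41%), and the medians were -0.33 and -0.01. In forebrain 2 were called (2.92%), 1 each way (0.618% and 2.3%), and in hindbrain 3 (6.3%), all of them higher (4.03%, with 2.27% of all genes lower). The lower calls include Sema3e in dorsal midbrain and Sema3d in forebrain, which passed the filter only through ventral midbrain. Medians were 0.18 and -0.03 in forebrain and 0.25 and -0.01 in hindbrain. These comparisons share all their libraries, so a member low in 1 region raises its difference in the others.

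Without the 3 discordant libraries more members were called in every region, as were more genes at large. In ventral midbrain 14 were higher and 6 lower (16% and 17.5% of all genes, 33.5% in all), and in dorsal midbrain 3 and 21 (35.8% and 28.6%, 64.5% in all). In alar plate 4 were higher and 5 lower (5.09% and 7.24%, 12.3% in all). In forebrain there were 16 and 7 (18.8% and 24.8%, 43.7% in all), and in hindbrain 14 and 4 (18.4% and 19.4%, 37.8% in all). Leaving out alar plate 3 alone gave 14 calls in ventral midbrain (19.6% of all genes), 17 in dorsal midbrain (53.3%), 3 in alar plate (3.78%), 7 in forebrain (8.24%) and 6 in hindbrain (14.6%). The count for ventral midbrain fell to 3, 2 and 2 without ventral midbrain 1, 2 and 3, and that for dorsal midbrain to 3 and 3 without dorsal midbrain 1 and 2. Fewer libraries of the region remain in these fits. With no share of all genes beside them, these lower counts do not set the members apart from genes at large. Markers of neurons moved with the dorsal midbrain counts, since 4 of 8 were lower there, and their summed level was 1756, 1959 and 2276 RPKM in dorsal midbrain 1, 2 and 3 against 1960 to 2810 RPKM elsewhere. Of 9 markers of neural progenitors 4 were higher there and 2 lower, with Top2a and Mki67, genes of cell division, higher by 1.73 and 1.65, and all 8 tested markers of meninges and mesenchyme were higher. The part of these markers in the lower calls was not tested.

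Between single regions, ventral midbrain differed from alar plate in 13 members (14.2% of all genes), 11 of them higher (9.12%), and from dorsal midbrain in 8 (23.9%), all higher (11.4%). It differed from forebrain in 8 (8.33%) and from hindbrain in 4 (3.8%). Dorsal midbrain differed from hindbrain in 12 members (32.1%), 11 of them lower (14.7%), and from forebrain in 8 (27.3%), 7 of them lower (11%). Alar plate differed from hindbrain in 4 (9.97%) and forebrain from hindbrain in 3 (2.7%). The largest of these differences were those of Nrp2, 3.05 ± 0.36 between ventral and dorsal midbrain (adjusted p = 9.45e-05) and -3.01 ± 0.36 between dorsal midbrain and hindbrain (adjusted p = 0.000151). Limma called 0 members between dorsal midbrain and alar plate (1.67% of all genes) and 0 between alar plate and forebrain (0.0946%). The unadjusted p was under 0.05 for 8 and 9 members, and voom on recovered reads also called 0 in both. Without the 3 discordant libraries the counts were 17 (39.2% of all genes) and 12 (27.3%), among them Plxna2, Plxna4 and Sema3c for the first and Nrp2, Plxna1 and Sema5a for the second.

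Alar plate 3 touched many members at once. In 23 of the 30 tested members it was the lowest of its region, against 46.0% of all genes, and the median log2 difference from alar plate 1 and 2 was -0.43 for the members and -0.02 for all genes. The RPKM of this library summed to 489420 over all genes, against 374280 to 390992 in the other 14. The members are long genes. All 30 lay above the 50th percentile of gene length among tested genes, with a median percentile of 89.6. The part of gene length in their low values in alar plate 3 was not tested. In dorsal midbrain 3 and forebrain 1 the departures went both ways. Sema3c, Sema5a and Nrp2 were higher in dorsal midbrain 3 than in its partners, while Plxnd1 and Sema3d were lower. In forebrain 1, Sema5a and Sema3a were higher, and Nrp2, Plxna4 and Sema6d were lower.

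**Figure D4:**
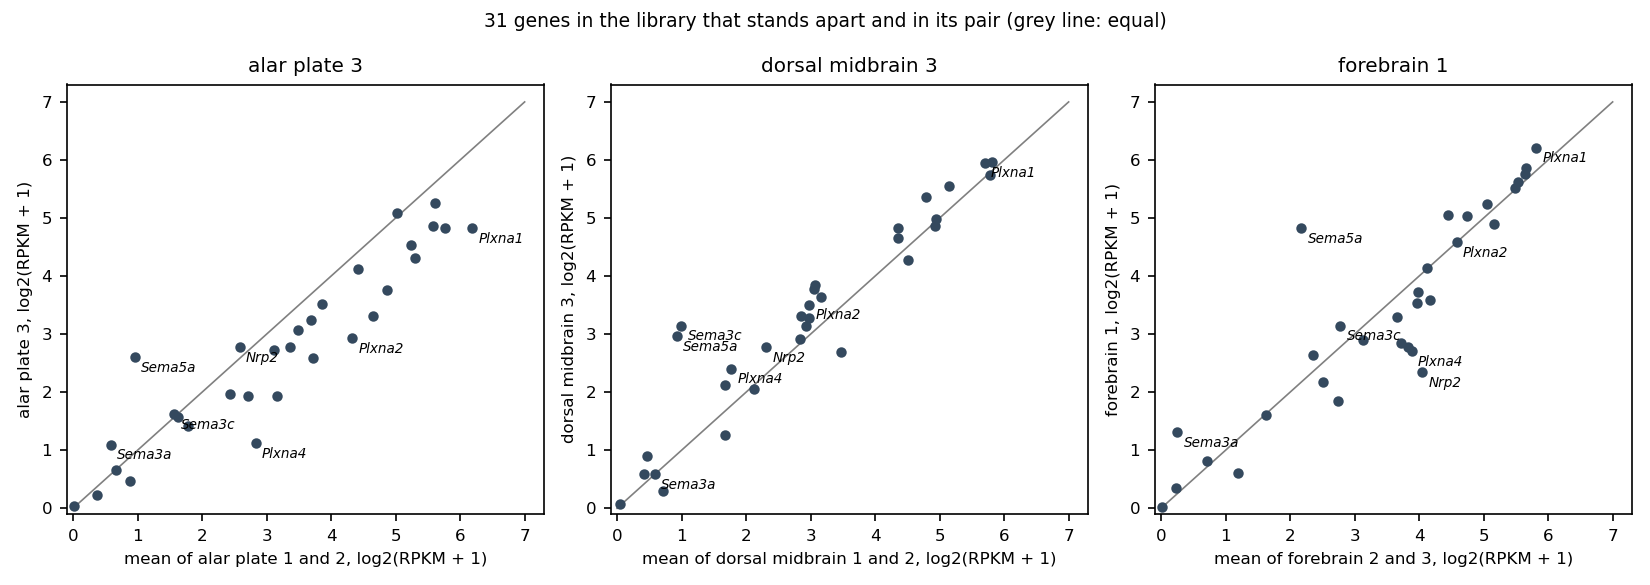
Log2(RPKM + 1) of the 31 semaphorin, plexin and neuropilin genes in each discordant library, on the vertical axis, against the mean of the other 2 libraries of its region, on the horizontal axis, in 3 panels with the line of equal values. In alar plate 3 most genes fall below the line (23 of the 30 tested are lowest in that library), and Sema5a lies above it in all 3 panels.

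Other genes of the pathway were taken from 2 lists, one of co-receptors and further partners and one of intracellular signalling. Of 16 co-receptors and partners, all tested, 10 were called over the regions, and of 21 tested genes of intracellular signalling 6 were, against 33.7% of all genes. In dorsal midbrain 4 of the partners were higher and 2 lower (18.2% and 13.8% of all genes), and in ventral midbrain 2 were higher and 1 lower (7.43% and 3.16%). The median difference in dorsal midbrain was -0.01 for the partners and -0.16 for the intracellular genes, beside 0.05 for all genes. Chl1, an adhesion protein that can join neuropilins in receptor complexes, was at 3.39, 3.40 and 24.8 RPKM in dorsal midbrain, against 54.0, 61.7 and 59.9 RPKM in ventral midbrain and 63.8, 80.1 and 87.2 RPKM in hindbrain (adjusted p = 0.00166). Like Nrp2 it was high in ventral midbrain and hindbrain and low in dorsal midbrain, but it was also high in forebrain, at 54.6, 58.0 and 58.6 RPKM.

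Cntn2, an axonal adhesion protein of the same receptor complexes, ran the other way, with 119, 119 and 89.6 RPKM in the dorsal midbrain and 9.19, 18.6 and 12.4 RPKM in hindbrain (adjusted p = 0.00028). Met, a receptor tyrosine kinase that associates with B-type plexins, was at 2.96, 3.09 and 1.36 RPKM in dorsal midbrain and at 1.28, 1.49 and 1.54 RPKM in ventral midbrain, and between 0.145 and 0.769 RPKM in the other 9 libraries (adjusted p = 0.000546). L1cam, the partner of Nrp1 in the response to Sema3a, was highest in forebrain, at 80.5, 71.9 and 75.7 RPKM, and lowest in alar plate 3, at 21.0 RPKM (adjusted p = 0.0256). Sdc3, a heparan sulfate proteoglycan, was at 28.6, 30.5 and 65.2 RPKM in dorsal midbrain and at 88.2, 95.9 and 106 RPKM in forebrain (adjusted p = 0.00748). Itgb1, an integrin chain that serves as a receptor of Sema7a, was highest in ventral midbrain, at 55.5, 51.7 and 52.1 RPKM, and stood at 25.8, 24.95 and 28.9 RPKM in forebrain (adjusted p = 0.000975).

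Of the intracellular genes, 5 of 21 were lower and 1 was higher in dorsal midbrain than in the other regions, against 13.8% and 18.2% of all genes. Crmp1, a collapsin response mediator protein that relays Sema3a signals to microtubules, was at 218, 238 and 311 RPKM in dorsal midbrain and at 380, 433 and 463 RPKM in forebrain (adjusted p = 0.0169). Cdk5r1, the activator of the kinase that acts on those proteins, was at 51.8, 64.6 and 74.5 RPKM in dorsal midbrain and at 89.4, 119 and 115 RPKM in hindbrain (adjusted p = 0.0105). Fyn, a kinase of the Sema3a response, differed by less, with 35.9, 37.0 and 38.5 RPKM in the dorsal midbrain and 42.3 to 50.1 RPKM in the other 12 libraries (adjusted p = 0.0152). Rnd1, a small GTPase that binds plexins, was highest in ventral midbrain, at 8.81, 7.37 and 8.03 RPKM, where every library lay above the other 12, which ranged from 3.42 to 6.44 RPKM (adjusted p = 0.0318). Fes, a tyrosine kinase that can bind Plxna1, was highest in dorsal midbrain, at 2.45, 2.34 and 2.39 RPKM against 0.552 to 1.69 RPKM elsewhere (adjusted p = 0.00408). Rapgef2, an exchange factor for Rap GTPases, stood at 11.1, 10.7 and 11.1 RPKM in hindbrain and was lowest in alar plate 3, at 4.56 RPKM (adjusted p = 0.0255).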

How the data were processed

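The authors deposited 1 table of RPKM values with 15 columns, 1 per library. Bowtie (aligner) and mm9 (genome build) are named in the submitters' processing notes. The aligner's version, the annotation, the counting, its use of strand and any filter on reads were not given in the sources used here. No gene coordinates are printed for that build, and promoter windows come from RefSeq on GRCm38.p6, matched by symbol. Reads were recovered as whole multiples of the value of 1 read (rounding error up to 0.02 reads, rising to 0.15 for large values). Depth was 8419316 to 12724274 reads per library, and the limit of 3 reads covers counting error only.

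Genes reaching 1 RPKM in 3 or more libraries were tested with limma 3.58.1 in R 4.3.3, in a single model of 5 region means with a variance trend, on log2(RPKM + 1). Tests were two-sided, with Benjamini-Hochberg adjustment over the 13745 genes of each comparison. By rule, members called over the regions with a region mean of at least 5 RPKM were named, as were up to 6 called genes of each pathway list. Alternatives changed the pseudocount (0.1), the filter, the scaling, the library weights and the replicate block, and left out each library or the 3 discordant ones. Voom on recovered reads was added after the data were seen. The model was tested on simulated data. Members and lists were chosen with earlier results of these data known.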

Additional observations from a re-analysis of the deposited data

How the results depend on the processing

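No member called in a region against the other 4 changed sign there under any alternative run, and the pairs of regions were followed only as counts of calls. Of 30 tested members 16 were called over the 5 regions with all libraries, and 10 of 24 with a filter of 5 RPKM. The count was 30 both with library weights (84.7% of all genes) and without the 3 discordant libraries (70.7%). With library weights, 19 members were called in ventral midbrain (44.6% of all genes), 26 in dorsal midbrain (76.9%), 13 in alar plate (16.4%), 24 in forebrain (49.1%) and 22 in hindbrain (53%), each against the other regions, and 190 calls were made over the 10 pairs. Without the 3 libraries these were 20, 24, 9, 23, 18 and 177, against 9, 11, 4, 2, 3 and 60 with all. The 2 forebrain calls became 0 with a pseudocount of 0.1, with the filter of 5 RPKM and with voom on recovered reads, and 1 with no filter and with quantile normalization. The filter of 5 RPKM, which removes weak members, left 1 call in hindbrain and 35 over the pairs. Leaving out 1 library gave 10 to 28 calls over the regions, 2 to 14 in ventral midbrain, 3 to 17 in dorsal midbrain, 2 to 8 in alar plate, 0 to 7 in forebrain, 2 to 6 in hindbrain and 36 to 99 over the pairs. Except for alar plate itself, whose highest count came without alar plate 1, the highest of these came without alar plate 3, and the lowest for ventral and dorsal midbrain came without 1 of their own libraries, where fewer samples remain. Beside the 28 calls over the regions without alar plate 3 stood 56.7% of all genes. Counts given with no share of all genes do not set the members apart from genes at large.

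Deviations of libraries with the same replicate number correlated at -0.175 to 0.405 over 30 pairs (median 0.236, against -0.0993 for different numbers), and 10 of 15 libraries correlated best with their own number. This hints at some shared structure, but the labels give no pairing and not every pair correlated, so the block was kept as an alternative. With the replicate block, 15 members were called over the regions, 8 in ventral midbrain (Sema3g lost), 11 in dorsal midbrain, 4 in alar plate, 2 in forebrain (Sema6b in place of Sema4a), 2 in hindbrain (Sema4d lost) and 62 over the pairs. No share of all genes is set beside these counts either. A planned quasi-likelihood test on recovered reads was not run, and voom on those reads was run instead. Plxnb3, with 1 to 9 reads per library, lies at the limit of the depth.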
